A study of Bos taurus with 12 samples.

Results

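The comparison covers 6 endometrial biopsies, the 3 taken on day 14 and the 3 taken on day 0 from the same 3 cows, out of 12 biopsies in the series. It asks which transcripts still differed from their starting level at the last sampling after an antiseptic was placed in the uterus. The samples were chosen by the day in their titles and paired by the cow number given there, and every non-control probe well above background on at least 3 of the 12 arrays was kept, which left 33539 of 43653 probes. These probes represent 12906 named genes, each read below by its brightest probe unless another is named.

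All 3 cows (Bos taurus, described by the labels as fertile) received povidone-iodine (PVP-I) into the uterus, and their endometrium was sampled with biopsy forceps 4 times, on days 0, 2, 7 and 14. One-colour (Cy3) Agilent arrays, 1 per biopsy, measured the total RNA. The labels name no untreated cow, and they give neither the cycle stage nor the horn of a sample, nor whether the day 0 biopsy came before the antiseptic. A change with time in the cycle, an effect of repeated biopsy and an effect of the antiseptic therefore cannot be told apart.

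Povidone-iodine releases iodine, a broad oxidising antiseptic, and is infused into the uterus of cattle with endometritis. The endometrium is a mucosa of luminal and glandular epithelium over a stroma that holds vessels and immune cells. It is remodelled in every oestrous cycle under oestradiol and progesterone, and it repairs after injury through cell division, clearance of debris by macrophages and deposition of matrix.

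The deposited data carry a conflict that decides every value below. Each column of the deposited value table matched exactly 1 scanner file, with a correlation of 1.0 against at most 0.52 for the next best file, but only 2 of the 12 matches were the file linked to the same sample. Samples were read from the table columns, and read that way each slide holds 1 cow and each position on a slide 1 day, so slide and cow, and position and day, cannot be told apart. The share of probes well above background ran from 71.4% to 76.0% on the 6 arrays of days 0 and 14, and no probe was saturated. The number of arrays, 3 per day, limits the precision.

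The biopsies held epithelial and stromal transcripts on both days. The epithelial genes KRT8, EPCAM and CDH1 and the stromal genes VIM, COL1A2 and DCN were well above background on all 6 arrays. Of 20 luminal and glandular epithelium markers none passed the test on day 14, and their median difference from day 0 was -0.25 on the log2 scale. At an unadjusted p under 0.05, 1 was lower and none higher, where 9.03% of all genes were lower. The 95% interval lay within 2-fold of day 0 for only 2 of the 20, against 58.6% of all genes, so larger changes of most markers stay possible. A biopsy is a mixture of cells, so fewer cells of a type and less RNA per cell cannot be told apart in any value here.

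Day 14 differed from day 0 at 39 probes, which is 0.116% of the probes tested, 20 of them higher (0.0596%) and 19 lower (0.0567%) (limma's moderated test with cow as a block, Benjamini-Hochberg adjusted p under 0.05). Their adjusted p-values ran from 0.0122 to 0.0487 and the smallest difference among them was 1.14 on the log2 scale. All 39 moved the same way in 3 of 3 cows, and at 37 of them the 3 arrays of day 14 did not overlap the 3 of day 0. Of all probes 14.2% lay wholly above day 0 and 11.4% wholly below. The 39 were called on these same arrays, so neither count is separate support. By brightest probe, 13 genes passed (0.101% of genes), 6 higher (0.0465%) and 7 lower (0.0542%). The same fit called 846 probes on day 2 against day 0 (2.52%) and 6100 on day 7 against day 0 (18.2%). These comparisons share the day 0 arrays.

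The calls depended on the whole series of arrays. None of the 39 passed when the fit held only the arrays of days 0 and 14, where 5033 probes had an unadjusted p under 0.05, and none passed when any 1 cow was left out (3861, 3553 and 7966 probes at an unadjusted p under 0.05 without cows 1, 2 and 3). Read by the scanner file links, 237 probes passed and none of them was among the 39.

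A small number of calls did not mean that the remaining probes had returned to their day 0 level. At an unadjusted p under 0.05 there were 6890 probes (20.5%). The 95% confidence interval of the difference lay wholly within 2-fold of day 0 for 18690 probes (55.7%) and for 7557 of the 12906 genes (58.6%). For the rest the interval reached beyond 2-fold in at least 1 direction. Without cow 1 only 9896 probes met that bound, while 26923 (80.3%) did with another background correction and normalization (normexp and quantile).

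The cows differed in how far from day 0 they lay. On day 14, 7.84% of probes in cow 1, 19.8% in cow 2 and 23.2% in cow 3 stood over 2-fold from the same cow's day 0. The corresponding values of day 7 were 22.0%, 22.6% and 26.4%, so cow 1 was the farthest below its own day 7. Along principal component 1 (27.8% of the variance) the day 0 arrays lay between 80.8 and 92.9 and those of day 7 between -92.6 and -76.3. Day 14 lay at 30.4 in cow 1, -55.1 in cow 2 and 4.84 in cow 3, between those ranges in every cow.

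**Figure D1:**
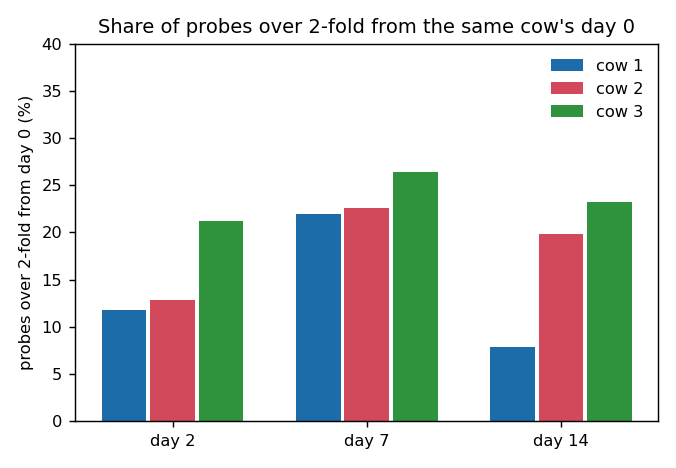
Share of the 33539 probes (in percent, bars from 0) whose log2 signal differed by over 2-fold from the same cow's day 0 array, on days 2, 7 and 14, 1 bar per cow. On day 14 cow 1 stands at 7.84%, cow 2 at 19.8% and cow 3 at 23.2%.

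Few genes moved far in all cows at once. Over 2-fold differences in the same direction in 3 of 3 cows were found for 361 genes, 228 higher (1.77% of genes) and 133 lower (1.03%), while 4323 genes exceeded 2-fold in at least 1 cow. Of these, 1171 did so in cow 2 alone, 1396 in cow 3 alone and 170 in cow 1 alone, and 439 exceeded 2-fold in opposite directions in different cows. Between cows, 3.94% of probes had an SD over 1 (log2, n = 3) on day 0 and 9.17% on day 14.

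Signals are given as log2 of processed intensity relative to the 75th percentile of the array, so that 0 is that percentile, and in the order cow 1, cow 2, cow 3. Differences are day 14 minus day 0 with the standard error of the fit (n = 3 cows). Different probes have different brightness, and no level is set against that of another probe.

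The genes that rose included components of cell division. RRM2, the small subunit of ribonucleotide reductase that supplies deoxynucleotides for DNA synthesis, had signals of -4.76, -3.05 and -6.04 on day 0 and of -0.80, 0.37 and -1.20 on day 14. Every day 14 array lay above every day 0 array, and the difference was 4.07 ± 0.49 (16.8-fold, adjusted p = 0.044). All 3 RRM2 probes gave differences between 4.07 and 4.24, of which 1 passed. RRM2 was already high on day 2 (4.47 above day 0, adjusted p = 0.0116) and on day 7 (3.79, adjusted p = 0.00417), and day 14 stood 0.28 ± 0.49 from day 7. CDCA2, a chromosome-bound phosphatase partner of late mitosis that was named after its values were seen, rose by 3.02 ± 0.39 at 1 of its 2 probes (adjusted p = 0.0464). That probe was not well above background on day 0, so the rise there is given as at least 4.08-fold. The brighter CDCA2 probe, well above background on all 3 arrays of day 0, gave 2.71 ± 0.49 (6.52-fold) and missed the threshold (adjusted p = 0.0619).

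The alpha-tubulin genes TUBA1A, TUBA1B and TUBA1C, whose proteins pair with beta-tubulin to build microtubules, made up 8 of the 20 probes that rose. All 12 of their probes had an unadjusted p under 0.05, where 20.5% of all probes did, with differences from 0.83 to 1.81. The brightest probe of each gene missed the threshold. It gave 1.28 for TUBA1A, 0.83 for TUBA1B and 1.05 for TUBA1C (adjusted p = 0.0619, 0.0619 and 0.0998). These genes were named after their values were seen, 8 of the 12 probes being calls already. The count of 12 beside the 20.5% of all probes is therefore no separate evidence. Their probes can read each other's transcripts, because the genes are near-identical. The 8 calls are thus not 8 independent genes. At the TUBA1A probe with the largest difference, signals were 1.81, 2.05 and 1.64 on day 0 and 3.51, 4.01 and 3.41 on day 14, a rise of 1.81 ± 0.21 (adjusted p = 0.0351). That probe had stood 2.73 above day 0 on day 7 (adjusted p = 0.0017), and day 14 lay 0.92 below day 7 (adjusted p = 0.0906). Of the other alpha-tubulin genes, TUBA3E and TUBA4A had differences from 0.88 to 1.65 at 5 probes, none called, and TUBA1D and TUBA8 had -1.1 ± 0.78 and -0.8 ± 0.75 (adjusted p = 0.451 and 0.572).

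Genes known from macrophages formed another group of rises. GPNMB, a lysosomal glycoprotein of lipid-laden and debris-clearing macrophages, had signals of 0.06, -0.46 and -0.71 on day 0 and of 2.67, 3.28 and 2.68 on day 14. The groups did not overlap and the rise was 3.25 ± 0.42 (9.50-fold, adjusted p = 0.0464). Both GPNMB probes passed, and the first 30 bases of each are printed, with no part in capitals:
GPNMB probe 1: tcctgtgtcaatgaacatgcatgagctccc
GPNMB probe 2: actgaaactaccctgtgtcagtcatgacat
The second gave 3.13 ± 0.42 (adjusted p = 0.0487). On days 2 and 7 the first GPNMB probe was 1.19 and 1.33 above day 0 (adjusted p = 0.162 and 0.0602), and day 14 stood 1.92 above day 7 (adjusted p = 0.0857). The signal on day 7 was 2.04 in cow 1 and 0.58 and 0.27 in cows 2 and 3, so cow 1 had reached most of its day 14 level by then.

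PMEL, a fibril-forming glycoprotein related to GPNMB and named here after its values were seen, rose by 2.93 ± 0.37 at 1 of its 2 probes, the dimmer one (adjusted p = 0.0464). The signals of that probe were -2.69, -3.25 and -3.79 on day 0 and -0.18, 0.80 and -1.58 on day 14. On days 2 and 7 that probe had been within 0.39 and 0.63 of day 0 (adjusted p = 0.579 and 0.264). The brightest PMEL probe gave 2.80 and fell just outside the threshold. SPIC, an Ets-family transcription factor of macrophages that recycle iron from red cells, rose by 1.80 ± 0.24 (adjusted p = 0.0479), from -5.66, -5.52 and -5.97 to -3.60, -3.67 and -4.50. With normexp and quantile normalization the difference of this SPIC probe was 0.64 (adjusted p = 0.0481). The second SPIC probe, well above background on 1 of the 3 day 0 arrays, gave 1.58 ± 0.38 and did not pass (adjusted p = 0.0888). By the first, SPIC had been 2.08 above day 0 on day 2 (adjusted p = 0.0116) and 0.88 on day 7 (adjusted p = 0.0381).

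The remaining named rises were in other classes. SLC1A5, a glutamine and neutral amino acid transporter, went from -1.01, -1.15 and -2.31 to 0.84, 1.55 and -0.36, a rise of 2.17 ± 0.23 (4.49-fold, adjusted p = 0.028). It stood 2.12 above day 0 on day 2 and 2.52 on day 7, close to its day 14 difference. B3GNT8, a glycosyltransferase that extends N-glycans, rose by 1.96 ± 0.23 (adjusted p = 0.0351). GMIP rose by 1.25 ± 0.15 (adjusted p = 0.0464), with 1.24, 1.16 and 1.35 in the 3 cows.

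**Figure D2:**
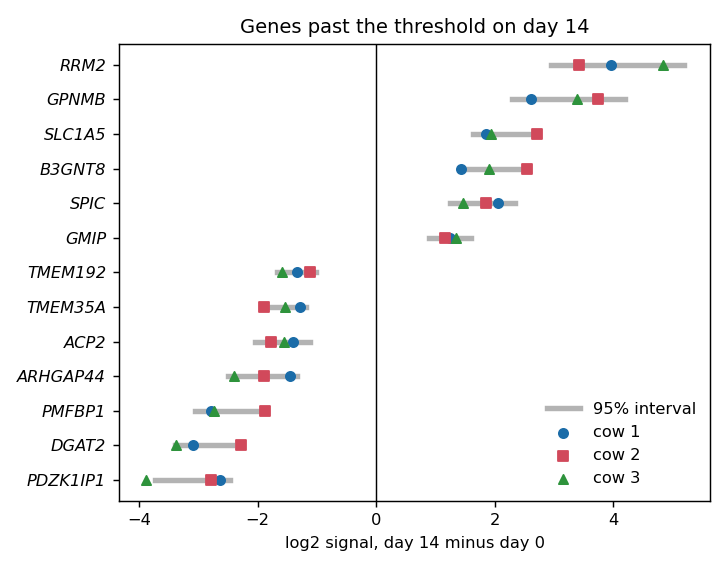
Day 14 minus day 0 (log2 signal, horizontal axis) for the 13 genes past the threshold by brightest probe; points are the 3 cows and grey bars the 95% interval of the fit. In every gene the 3 cows lie on the same side of 0, from RRM2 at 4.07 to PDZK1IP1 at -3.1.

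DGAT2, which catalyses the last step of triglyceride synthesis, had the smallest adjusted p of any named gene. Its signals were 0.84, 0.53 and 0.78 on day 0 and -2.25, -1.75 and -2.58 on day 14, a fall of 2.91 ± 0.21 on the log2 scale (7.52-fold lower, adjusted p = 0.0122). The level had dropped by day 2 (-2.52, adjusted p = 0.0109) and stayed there on day 7 (-3.04, adjusted p = 0.0017). All 3 DGAT2 probes passed, between -2.91 and -2.06. A pair of them share 40 bases, of which those within the printed windows are in capitals, and the one printed first gave the values above:
DGAT2 probe 1: tcaagtgctttttgttctgtaaatttggaa
DGAT2 probe 2: ATTGTTAGGGTCACATTAGCATCTTGCTGC
DGAT2 probe 3: tctatgagttATTGTTAGGGTCACATTAGC
CYP39A1, an oxysterol hydroxylase of bile acid synthesis named after its values were seen, fell by 2.44 ± 0.30 at 1 of 2 probes (adjusted p = 0.0464), from 0.82, 0.51 and 0.27 to -1.01, -1.59 and -3.11. Its brightest probe gave -2.56 ± 0.38 (adjusted p = 0.0539). In the list of 27 cholesterol and fatty acid synthesis genes, which holds neither of these, none passed, none was higher and 1 was lower at an unadjusted p under 0.05, and the median difference was 0.06.

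PDZK1IP1, a small membrane protein of epithelia, fell by 3.1 ± 0.28 (8.58-fold lower, adjusted p = 0.028). Its signals were 2.07, 3.22 and 3.22 on day 0 and -0.56, 0.43 and -0.67 on day 14. Day 7 had been lower still, at -1.69, -0.59 and -1.69, and day 14 was 1.06 above day 7 (adjusted p = 0.122). The epithelial markers KRT8, EPCAM and CDH1 differed from day 0 by -0.11, -0.42 and -0.36 on the same arrays (unadjusted p = 0.749, 0.322 and 0.39). Of the 20 luminal and glandular epithelium markers 8 had a positive and 12 a negative difference, and 2 had an interval within 2-fold of day 0. Whether the share of epithelium bears on the PDZK1IP1 fall was not tested.

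Genes of lysosomal proteins were among the falls. ACP2, the lysosomal acid phosphatase, fell by 1.58 ± 0.21 (adjusted p = 0.0464), and TMEM192, a lysosomal membrane protein, by 1.35 ± 0.14 (adjusted p = 0.028). ASAH1, the acid ceramidase, passed at 2 of 3 probes (-1.77 and -1.17, adjusted p = 0.0351 and 0.0479), and its brightest probe gave -1.0 (adjusted p = 0.0565). This grouping was made after the values were seen. In the list of 24 lysosomal genes, which holds none of these 3, no gene passed, 5 were higher and 3 lower at an unadjusted p under 0.05 (11.5% and 9.03% of all genes were), and the median difference was 0.10.

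Further falls were those of ARHGAP44 (-1.92 ± 0.25, adjusted p = 0.0479), TMEM35A, a chaperone of nicotinic receptors (-1.57 ± 0.17, adjusted p = 0.028), and PMFBP1, a protein known from the sperm neck. PMFBP1 was well above background on day 0 and on no array of day 14, which by processed intensity makes it at least 2.73-fold lower (adjusted p = 0.028). Only the 3 arrays of day 0 were well above background, so PMFBP1 passed the filter through day 0 alone. With normexp and quantile normalization its difference was -0.39, beside -2.47 in the main fit. TXNIP, the thioredoxin-interacting protein, passed at 1 of 4 probes (-1.72 ± 0.23, adjusted p = 0.0479), and the other probes lay between -1.43 and -0.75. ZMAT1, CDADC1 and H2B, which like TXNIP were named after their values were seen, also passed at 1 probe each. ZMAT1 was at least 3.24-fold lower at 1 of 2 probes (adjusted p = 0.028), which was well above background on no array of day 14. That ZMAT1 probe also passed the filter through day 0 alone. CDADC1 passed at 1 of 3 probes and H2B at 1 of 4, both with -1.14 ± 0.15 (adjusted p = 0.0464), and the brightest probes of these 3 genes did not pass. Of the 39 probes, 6 carry no gene symbol in the tables used. Among these, LOC513746 passed the filter through day 14 alone, and LOC100335534 and ENSBTAT00000050597 through day 0 alone.

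**Figure D3:**
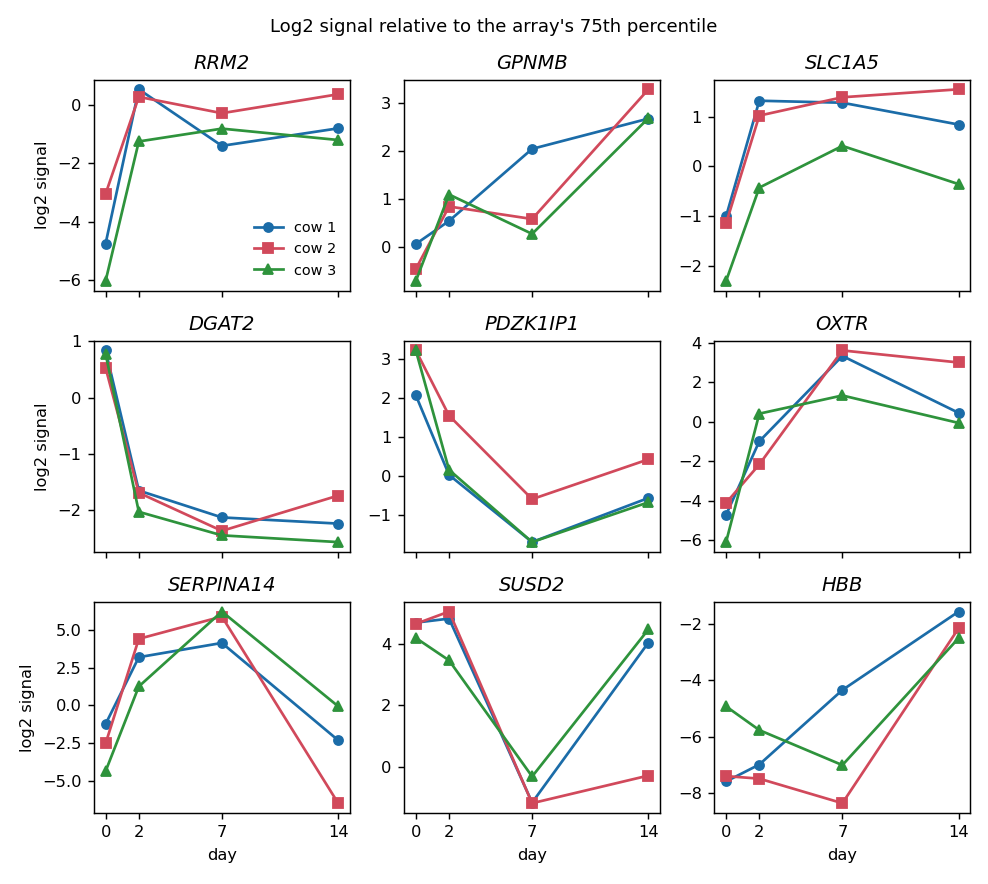
Log2 signal (vertical axes, relative to the array's 75th percentile) on days 0, 2, 7 and 14 (horizontal axes) for 9 genes, 1 line per cow. RRM2, SLC1A5, DGAT2 and PDZK1IP1 left their day 0 level by day 2, GPNMB and HBB are highest on day 14 in each cow, and on day 14 SERPINA14 and SUSD2 are lowest in cow 2.

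Mitosis and spindle genes gave the highest list median. None of the 35 measured genes passed the adjusted threshold, but 33 were higher at an unadjusted p under 0.05, where 11.5% of all genes were. In 32 of the 35 the 3 arrays of day 14 lay above the 3 of day 0, against 15.2% of all genes. The list median was 2.35 (1.98, 2.17 and 2.92 in cows 1, 2 and 3), beside 0.04 for all genes. The list was chosen with earlier results of these data known, so these shares describe it and do not test it. Read by the scanner file links, 0 of the 35 were higher at an unadjusted p under 0.05, and the median was 0.59. ASPM, a spindle pole protein, had signals of -7.53, -4.70 and -8.47 on day 0 and -2.95, -1.48 and -3.40 on day 14, a difference of 4.29 ± 0.64 (adjusted p = 0.0542), and was well above background on 1 of the 3 day 0 arrays. The checkpoint kinase BUB1 differed by 2.41 ± 0.39 (adjusted p = 0.0565) and BUB1B by 3.2 ± 0.58 (adjusted p = 0.0619). The exceptions were HMMR at 0.04, CCNB1 at -0.68 and, with overlapping groups, PRC1 at 1.37. The medians on days 2 and 7 were 2.24 and 1.39, with 5 and 6 genes called higher (1.9% and 10.9% of all genes were), so the day 14 median was not below either.

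**Figure D4:**
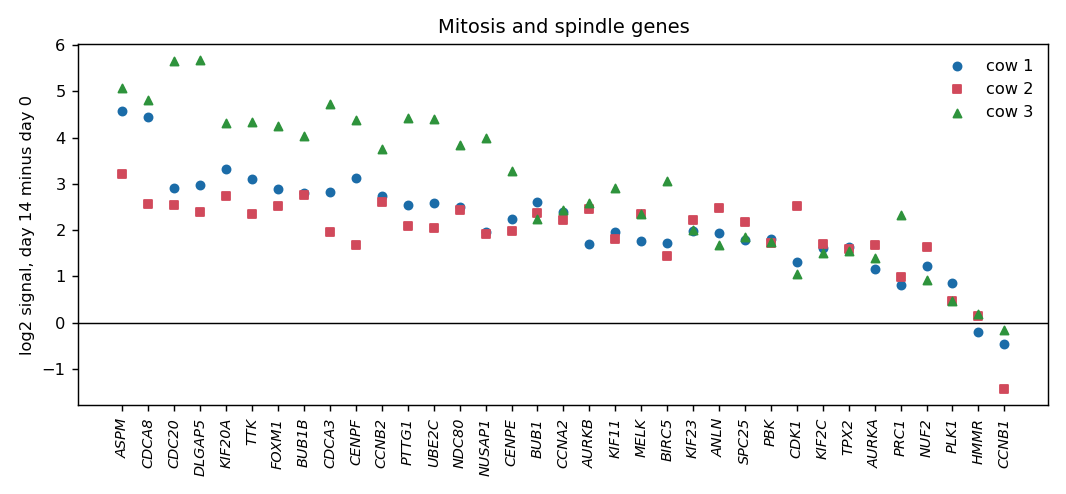
Day 14 minus day 0 (log2 signal, vertical axis) in each of the 3 cows for the 35 mitosis and spindle genes, ordered by their fitted difference. All but HMMR and CCNB1 lie above 0 in 3 of 3 cows, and cow 3 is often the highest.

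DNA replication and nucleotide synthesis genes were less uniform. RRM2 alone passed of 32 genes, 11 were higher and 1 lower at an unadjusted p under 0.05 (11.5% and 9.03% of all genes were), and the median was 0.40. UHRF1, which carries DNA methylation through replication, was 3.70 ± 0.74 higher (adjusted p = 0.071). CDC6, a licensing factor not well above background on day 0, was at least 2.68-fold higher (adjusted p = 0.0619). Among 23 E2F and cell cycle control genes none passed, 11 were higher and 1 lower at an unadjusted p under 0.05, with CCNE1 at 1.41 ± 0.27 (adjusted p = 0.0689).

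Macrophage markers split between genes and between cows. GPNMB and SPIC passed of 23 genes, 6 were higher at an unadjusted p under 0.05 (11.5% of all genes were) and none lower, and the median was 0.72. By cow the median was 0.76, 1.33 and -0.25. The complement gene C1QA, which resident macrophages express, was 3.02, 2.72 and 2.87 on day 0 and 4.24, 3.84 and 1.57 on day 14, higher in cows 1 and 2 and lower in cow 3. GPNMB by contrast was 2.61, 3.74 and 3.39 above day 0 in the 3 cows.

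Matrix genes were mostly higher without passing. Of 33 extracellular matrix genes none was called, 15 were higher and none lower at an unadjusted p under 0.05, where 11.5% of all genes were higher. The day 14 arrays lay wholly above those of day 0 in 17 of the 33, against 15.2% of all genes, and the median was 0.56. FN1, fibronectin, had signals of 2.04, 2.17 and 1.91 on day 0 and 3.38, 4.99 and 3.97 on day 14 (2.08 ± 0.33, adjusted p = 0.0559). TNC, tenascin C of wound matrix, was 3.40 ± 0.61 higher (adjusted p = 0.0619) and COL12A1 2.58 ± 0.46 higher (adjusted p = 0.0619). In the stromal fibroblast list, 7 of 17 were higher at an unadjusted p under 0.05 beside the same 11.5%, led by DPT at 2.77 ± 0.56 (adjusted p = 0.071).

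Antimicrobial and acute phase genes held 9 of 22 higher and none lower at an unadjusted p under 0.05, with none called and a median of 1.09, where 11.5% of all genes were higher. BPI, a neutrophil and epithelial protein that binds endotoxin, was 3.45 ± 0.59 above day 0 (adjusted p = 0.0619). The beta-defensin DEFB7 stood 2.31 ± 0.48 above day 0 on day 14 (adjusted p = 0.0718) and 5.02 above it on day 7 (adjusted p = 0.00195). Neutrophil markers had 5 of 13 higher and acute inflammation genes 7 of 29 by the same measure, none of them called. T and NK cell markers had 5 of 18 higher, with CD3E at 1.29 ± 0.21 (adjusted p = 0.0565); on days 2 and 7 CD3E was -0.16 and 0.52 from day 0.

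Haemoglobin genes had their highest signals on day 14. HBB had signals of -7.59, -7.40 and -4.93 on day 0 and -1.57, -2.16 and -2.51 on day 14, with no overlap. The difference was 4.56 ± 0.93 and missed the threshold (adjusted p = 0.071), beside -0.11 on day 2 and 0.07 on day 7. HBB was well above background on 1 of the 3 day 0 arrays. HBG and HBA were 3.82 ± 0.76 and 2.23 ± 0.47 higher (adjusted p = 0.0704 and 0.0752). Haemoglobin genes include some close copies, and whether a probe here read more than 1 gene was not tested. The erythroid genes AHSP and KLF1 were at -0.44 and -0.56. Over the 8 measured erythrocyte genes none was called, 3 were higher and 1 lower at an unadjusted p under 0.05 (11.5% and 9.03% of all genes were), and the median was 0.19. Whether blood in the biopsies bears on SPIC or other values was not tested.

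Hormone-regulated genes included the largest difference of all that met the naming rule below the threshold. OXTR, the oxytocin receptor through which the uterus answers luteolytic oxytocin, had signals of -4.71, -4.11 and -6.09 on day 0 and 0.45, 3.00 and -0.06 on day 14. All day 14 arrays were above all of day 0, by 6.10 ± 0.95 (adjusted p = 0.0545), and day 7 stood 7.73 above day 0 (adjusted p = 0.00363). GREB1, an oestrogen receptor target not well above background on day 0, was at least 3.28-fold higher (adjusted p = 0.0704), and ESR1 was 0.99 ± 0.35 higher (adjusted p = 0.172). Of 19 steroid receptor and oestrogen-phase genes none was called, and 3 were higher and 1 lower at an unadjusted p under 0.05, shares near the 11.5% and 9.03% of all genes. Of 31 luteal-phase genes 1 was called, DGAT2, 6 were lower and none higher at an unadjusted p under 0.05 beside the same shares of all genes, and the median was -0.11. The cycle stage of the cows was not given, and its part in these values was not tested.

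Other large differences missed the threshold. The lymphoid chemokine CCL19 was not well above background on day 0 and was at least 7.54-fold higher on day 14 (adjusted p = 0.0539), with signals of -5.08, -3.98 and -1.82 that were below those of days 2 and 7 in every cow. MASP1, a protease of the complement lectin pathway, was 5.66 ± 1.21 higher (adjusted p = 0.0752). MASP1 was well above background on 1 of the 3 day 0 arrays, and its difference was 2.52, 5.61 and 8.85 in cows 1, 2 and 3. The mean of IL17B was at least 8.05-fold higher (adjusted p = 0.0818), with signals of 0.38 in cow 3 and -5.82 and -5.15 in cows 1 and 2. The IL17B difference was 2.6, 3.56 and 7.48 in cows 1, 2 and 3. CBLN2, C1QTNF3, DMBT1 and SHISA2 were between 3.95 and 4.21 higher (adjusted p from 0.107 to 0.115), with single cows from 1.59 to 6.25, both in SHISA2.

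Among the lower genes PRG4, the lubricating proteoglycan, had signals of -0.50, -0.73 and -0.43 on day 0 and -6.80, -7.68 and -5.04 on day 14 (-5.95 ± 1.51, adjusted p = 0.0958). Of its day 14 arrays 1 of 3 was well above background. LY6G6E was at -5.16 ± 0.76 (adjusted p = 0.0539). VEGFD, a lymphatic growth factor, was at -3.51 ± 0.53 (adjusted p = 0.0539), beside -3.42 on day 2 and -3.92 on day 7. SLC27A6, a fatty acid transporter, was at -4.02 ± 0.92 (adjusted p = 0.0845), and the flavin monooxygenase FMO2 at -3.56 ± 0.93 (adjusted p = 0.102), with -6.43 in cow 2 and -2.13 in each other cow. LOC518437, CNDP1, BSP3, DPP10 and DGKI were between -4.20 and -3.52 (adjusted p from 0.0582 to 0.123). Of these, LOC518437 was at -1.99, -8.08 and -2.53 in cows 1, 2 and 3, and DGKI at -0.87, -5.27 and -4.41. BSP3 and DPP10 were well above background on 1 of 3 day 14 arrays, and LOC518437 and CNDP1 on 2 of 3. The potassium channel gene KCNV1 was well above background on all 3 arrays of day 0 and on none of day 14, and was at least 6.11-fold lower (adjusted p = 0.0543).

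The genes that had moved most on days 2 and 7 differed in where they stood on day 14. SERPINA14, the uterine milk serpin, was 8.08 above day 0 on day 7 (adjusted p = 0.015) and -0.24 ± 1.62 from day 0 on day 14. Its day 14 signals were -2.30, -6.45 and -0.06 against -1.23, -2.51 and -4.34 on day 0, so the mean near 0 covers lower values in cows 1 and 2 and a higher value in cow 3. SPP1, osteopontin, was 5.21 above day 0 on day 2 and 0.72 ± 1.05 on day 14, with -0.17, -0.54 and 2.88 in cows 1, 2 and 3. COL26A1 went from -4.69 on day 2 to 0.70 ± 0.54 on day 14. CHI3L1, a chitinase-like protein of macrophages, was 5.64 above day 0 on day 7 and 1.58 ± 0.63 on day 14 (adjusted p = 0.21). REG4, a secreted lectin, was 9.65 above on day 7, and on day 14 it had signals of -2.97, 2.05 and -5.67 against at most -6.84 on day 0, which makes it at least 20.3-fold higher (adjusted p = 0.138).

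Several of these genes were farther from day 0 in cow 2 than in the other cows. SUSD2, a stromal surface protein, read 4.69, 4.65 and 4.19 on day 0. It had fallen to -1.17, -1.19 and -0.32 by day 7 (adjusted p = 0.0136), and its day 14 signals were 4.04, -0.29 and 4.47. Cows 1 and 3 were within 1 unit of day 0 and cow 2 was not. CRIPTO, a growth factor co-receptor, read 3.1, -4.34 and 4.46 on day 14 against 4.81, 4.74 and 5.10 on day 0. PRODH, proline dehydrogenase, read 3.25, -2.31 and 2.90 against 4.21, 3.93 and 3.14. RHCG, an ammonia transporter high on day 7, read -5.96, -0.93 and -5.55 against -5.76, -5.34 and -6.19. The macrophage elastase MMP12 was well above background on day 14 in 1 cow, with -3.94 in cow 2 and -8.50 and -8.32 in the others. The fitted differences of these 5 genes had adjusted p-values from 0.22 to 0.439.

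Cow 3 stood apart in other genes. Smooth muscle and pericyte markers had a median difference of 0.34, 0.34 and 1.98 in cows 1, 2 and 3, and TAGLN, an actin-binding protein of smooth muscle, read 2.84, 2.58 and 6.03 on day 14 against 2.18, 1.55 and 2.46 on day 0. Of the 18 markers 6 were higher at an unadjusted p under 0.05 (11.5% of all genes were) and none was called. Ciliated cell markers had medians of -0.30, 0.54 and -2.18, and ROPN1L, a protein of motile cilia, read -6.08 in cow 3 on day 14 against -1.25 on its day 0. Their part in the results above was not tested.

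**Figure D5:**
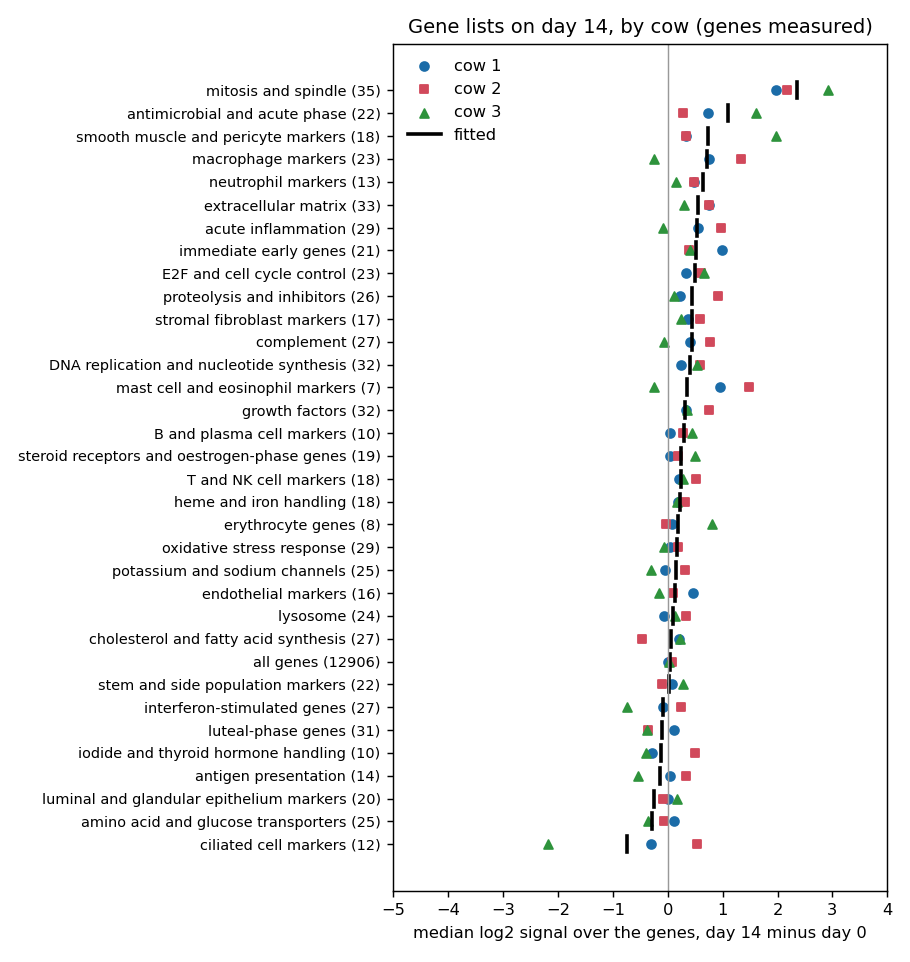
Median log2 difference, day 14 minus day 0 (horizontal axis), over the measured genes of each list and over all 12906 genes, by cow (points) and for the fitted differences (black bars), with the number of genes measured in brackets. Mitosis and spindle genes are highest at 2.35, with the cows at 1.98, 2.17 and 2.92, and ciliated cell markers lowest at -0.75, with cow 3 at -2.18.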

How the data were processed

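Total RNA of 12 endometrial biopsies was read on one-colour Agilent arrays. The deposited scanner files hold processed intensity per spot, written by Agilent Feature Extraction (11.5.1.1 per the file headers, but 10.5.1.1 in the submitters' processing notes). A log2 value table was deposited as well; how it was made is not stated in the sources used, and its columns equalled the log2 intensity scaled as below with each probe centred. The medians of its columns lay between -0.07 and 0.08. Each array took the sample of the table column it matched.

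Log2 processed intensity minus each array's 75th percentile was fitted with limma 3.58.1 in R 4.3.3, with day and cow as terms over all 12 arrays, after leaving out 1417 control spots and 31 probes with outlier flags, and with Benjamini-Hochberg adjustment over 33539 probes. Cow is a block because the same animals were sampled. Deviations from the day mean correlated at 0.285 on average over 18 same-cow pairs (lowest 0.0235) and at -0.136 between different cows. Taking out the day mean pulls the value of different cows below 0, so it is no separate evidence. Between days 0 and 14 the correlation was 0.356, 0.0235 and 0.0531 in cows 1, 2 and 3. The fit was tested on simulated data. Probes were named through RefSeq (ARS-UCD2.0) accessions and symbols, and each gene was read by its brightest probe. Probe sequences come from the scanner files. Named genes were those past the threshold with 1 sign in 3 cows, the 10 largest differences each way at an unadjusted p under 0.01 without overlap, up to 4 members of each list by p, and the 8 largest changes each way on days 2 and 7. Members and lists were chosen with earlier results of these data known, so the shares of a list beside those of all genes are descriptions and not tests. A bound is the brighter day's mean against the higher of the dim probe's own signal and the lowest signal well above background on each array. It holds for the mean of the 3 arrays, and neither for each cow nor for the confidence interval. The p-values measure the scatter left after the day and cow terms, pooled over all 12 arrays and 4 days (6 residual degrees of freedom). They are not based on the spread of the day 14 minus day 0 differences alone, and they cover these 3 cows only.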

Additional observations from a re-analysis of the deposited data

How the results depend on the processing

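Against 39 probes past the threshold, 237 passed when the samples were read from the scanner file links (75 higher and 162 lower), 104 with quantile normalization, 810 with normexp and quantile normalization, 4 with no filter on dim probes, 164 with the stricter filter, 346 with array weights (whose estimation did not converge) and 309 with a variance trend. None passed with only the arrays of days 0 and 14 or, over the fits that left out 1 cow, in any of them (from 0 to 0). The count was 39 from the deposited value table and 56 without the day 2 array of cow 3. Without the replicate block on cow 41 passed, of which 23 were shared with the 39. Shared probes numbered 37 with quantile normalization, 39 with the stricter filter and the variance trend, 38 with array weights and 32 with normexp. The number of probes with an interval within 2-fold of day 0 was 18690 and ran from 9896 to 19122 over the fits without 1 cow, and it was 19393 without the day 2 array of cow 3. That number was 26923 (80.3%) with normexp and quantile normalization, 21658 (64.6%) with array weights and 14732 (43.9%) by the file links. Read by the file links, GMIP gave -0.11, SLC1A5 -0.66, TMEM35A 0.06, B3GNT8 -0.19, the PMEL probe -0.06 and the probe TC356692 -0.29, each opposite in sign to its value above. The causes of these differences were not tested. Among the lists, the median of macrophage markers was -0.49 by the file links, and the mitosis and spindle median was 0.59 by the file links, 1.35 with normexp, 1.65 with array weights, and between 2.12 and 2.42 in the fits without 1 cow. Signal over background limits the genes given as bounds, and 3 cows without an untreated group limit every comparison.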
